A study of Mus musculus with 8 samples.

Results

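The axon guidance ligands and receptors are the semaphorins, plexins, neuropilins, ephrins, Eph receptors, Slits, Robo receptors, netrins, Unc5 receptors, Dcc and repulsive guidance molecules. All array probes whose gene name begins with the name of one of these families were taken, which gave 188 probes of 77 gene names out of 56605 probes, with 1 probe for 30 of the names and several for 47. Names matched by spelling only, Unc50, Unc5cl and the antisense transcripts Plxna4os1 and Plxna4os2, carry 4 of the 188 probes and are not guidance molecules themselves. Of the remaining names, 39 are ligands and 34 are receptors. RNA came from the cerebral cortex together with the striatum of 4 male BTBR/R mice, which are the BTBRTF/ArtRbrc strain, and 4 male C57BL/6J mice, called B6. Each mouse was measured on its own 1-colour array, and the question was which transcripts differ between the strains. The B6 mice and 3 of the BTBR/R mice were 4 months old, and BTBR/R replicate 1 was 6 months old. All BTBR/R mice share 3 mutant alleles that B6 mice lack, the brachyury allele T, the tufted allele Itpr3 tf and the black and tan allele a t. A related subline, BTBR/J, is in wide use as a model of autism spectrum disorder. The B6 mice came from a commercial breeder and the BTBR/R mice from a national resource centre, and no mouse of either strain was treated. All 8 arrays lay on 1 slide, with B6 in one column and BTBR/R in the other, and the strain difference cannot be told apart from one between slide columns.

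Growing axons steer by reading cues with receptors on the growth cone. Secreted class 3 semaphorins are mostly repulsive and bind neuropilins, which signal through plexins. Ephrins are bound to the membrane of the neighbouring cell and are read by Eph receptor kinases, netrins attract through Dcc and repel through Unc5 receptors, and Slits repel through Robo receptors. In the adult forebrain many of these molecules stay expressed at synapses, on glia and on blood vessels.

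Most guidance transcripts were measured in both strains and changed little. Of the 188 probes, 126 of 68 gene names (67%) were detected above background on all 8 arrays, against 50.4% of all probes. Levels are given as scaled signal, the log2 of a probe's signal relative to the 75th percentile of its array, so that 0 is the 75th percentile, and changes are BTBR/R minus B6 on this log2 scale. A probe was called when limma, fitted and adjusted over all 56605 probes, gave an adjusted p below 0.05 and the change was at least 2-fold. Among the 126 probes detected on all 8 arrays, 1 was called higher in BTBR/R mice (1.04% of all probes detected on all 8 arrays were) and none was called lower (1.16% of all). The one called probe lies in the gene of the repellent semaphorin Sema3a. Its B6 mean lay below every BTBR/R detection limit, as given below. It thus entered the 126, and every count that includes it, only by reading higher in BTBR/R mice. In tissue of mixed cells, fewer cells of a type and less RNA per cell cannot be told apart. Without the demand for 2-fold, 25 of the 126 (19.8%) rose and 15 (11.9%) fell at adjusted p below 0.05, beside 13% and 13.9% of all probes detected on all 8 arrays, and 86 did not pass. These 40 probes belong to 29 of the 68 gene names, and genes outside the naming rule are named below because a probe of theirs passed. The median change was 0.05 over the 126 probes and 0.00 over all probes detected on all 8 arrays, and the median size of a change without regard to sign was 0.14 and 0.12.

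Scaling and single mice set how firm the small changes are. Scaling the arrays by 7 spike-in probes raised the median change of all probes by 0.11, and 34 guidance probes then rose and 3 fell, in place of 25 and 15. No share of all probes is given for spike-in or any other alternative scaling. Guidance counts under them, here and below, thus cannot be set against the shares above. The 15 falls became 7 without B6 replicate 2, 9 without B6 replicate 4, 8 without BTBR/R replicate 1 and 9 without BTBR/R replicate 2. Of the 40 probes, 20 passed adjusted p 0.05 under all 19 alternative analyses, 17 of them higher and 3 lower, and these belong to 17 genes. Whichever array was left out, 26 of the 40 passed, and the number that missed was lowest, 7, without B6 replicate 1 or without BTBR/R replicate 4 and highest, 14, without B6 replicate 2.

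**Figure D1:**
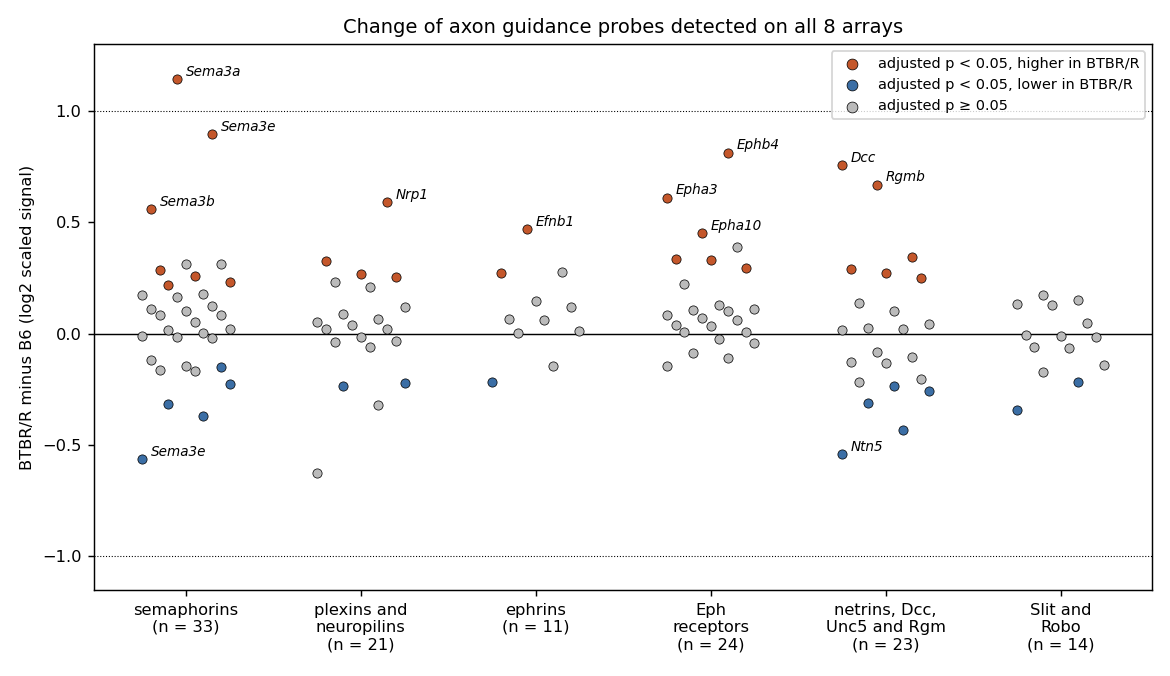
Change between strains (vertical axis, log2 scaled signal, BTBR/R minus B6) of the 126 guidance probes detected on all 8 arrays, 1 point per probe, by family. Orange points rose and blue points fell at limma adjusted p below 0.05, grey points did not pass, and dotted lines mark a 2-fold change. Nearly all points lie within 2-fold, 1 Sema3a probe lies above it, and the Eph receptors have 6 orange points and no blue one.

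The BTBR/R arrays had a higher detection limit, which bears on every dim probe. The lowest scaled signal flagged as detected lay between -5.28 and -4.98 on the B6 arrays and between -3.97 and -3.55 on the BTBR/R arrays, and 159 to 165 of the 188 guidance probes were detected per B6 array against 129 to 140 per BTBR/R array. Over all 188 probes, 14 were called higher (20.2% of all probes) and 3 lower (2.27%). Of the 14, 13 were detected on no array: 20 guidance probes were in that class, and their median difference of 1.26 stands beside 1.34 over all 14874 such probes, 67.7% of which were called higher. With normexp background correction, which models the background differently, the median was 0.02 over the 20 probes and 0.01 over all, and no guidance probe was called in either direction. These 13 probes, 4 of them of Slit2 and the others of Epha1, Epha5, Robo1, Rgmb, Plxna4os1, Plxna4os2, Plxnc1, Sema3d and Sema5a, were not well above background in either strain and are given no fold. The 9 gene names with no probe detected on all 8 arrays were Epha1, Epha2, Efna4, Ntn4, Ntng2, Unc5cl, Unc5d, Plxna4os1 and Plxna4os2.

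**Figure D2:**
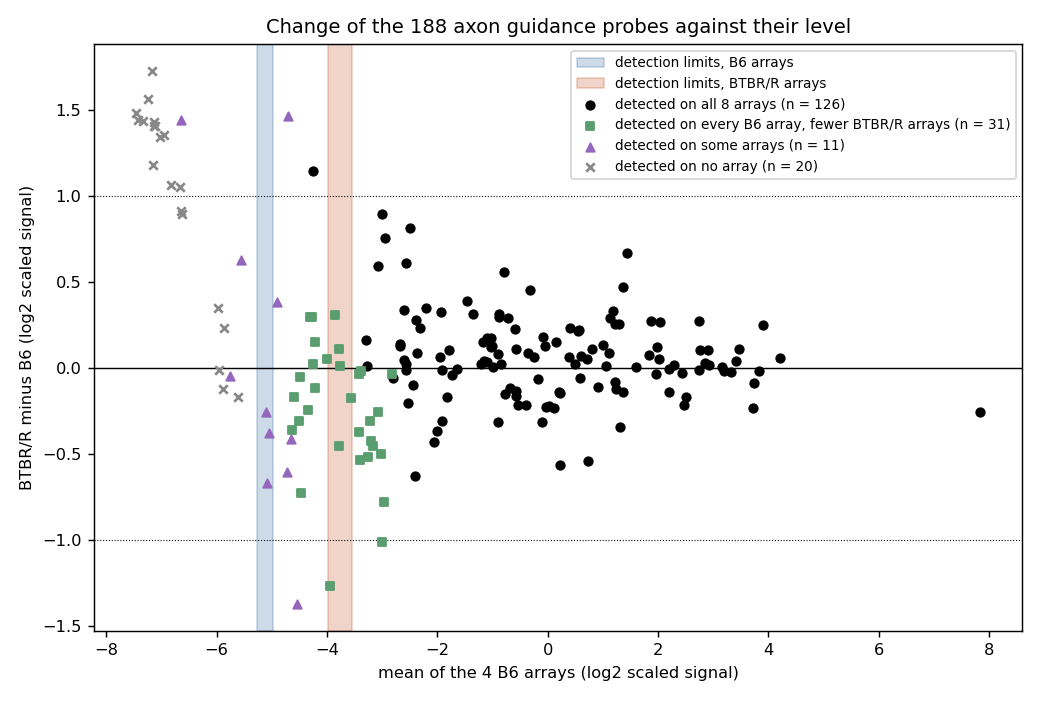
Change between strains (vertical axis) against the mean level of the 4 B6 mice (horizontal axis, both log2 scaled signal) for the 188 guidance probes, with symbols by detection. Shaded bands span the detection limits of the 4 B6 arrays (blue) and the 4 BTBR/R arrays (orange), and dotted lines mark 2-fold. The crosses, detected on no array, lie high at the left, and the changes of probes detected on all 8 arrays narrow as the level rises.

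Single mice stood apart in markers of neighbouring tissue. The mean scaled signal of 3 thalamus markers ran from -0.58 to 1.35 in the B6 mice and from -0.63 to 0.71 in the BTBR/R mice. B6 replicate 1 was the highest, and Prkcd, one of the 3, read 1.51, -1.17, -1.23 and -1.14 in the 4 B6 mice and -0.45, 0.66, -1.27 and -1.56 in the 4 BTBR/R mice. The mean of 6 choroid plexus markers ran from -1.61 to 0.75 in the B6 mice, B6 replicate 4 being the lowest, and from -0.85 to 0.12 in the BTBR/R mice. Ntng1, a membrane-anchored netrin relative known from thalamic neurons, read 3.45, 2.70, 2.72 and 2.82 in the 4 B6 mice and 2.78, 3.19, 2.97 and 2.81 in the 4 BTBR/R mice at its brightest probe, with B6 replicate 1 the highest there too. It did not differ between strains detectably (change 0.02, 95% interval -0.42 to 0.45, limma adjusted p = 0.952). Without B6 replicate 1, 24 of the 126 probes rose and 10 fell at adjusted p below 0.05, in place of 25 and 15, and without B6 replicate 4 23 rose and 9 fell. The part of the neighbouring tissue in the other values was not tested.

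The semaphorins Sema3a and Sema3e each had a dim probe that rose and a brighter probe that fell. In both genes the rising probe lies upstream of the falling one in the gene's direction and was designed to a transcript listed by Ensembl with a RIKEN cDNA, while the falling probe was designed to the RefSeq transcript. The opening 30 of the 60 bases of each probe are shown, because the direction of the change depended on which of them was read. They are written 5′ to 3′ in lower case, with mm9 positions from the array's annotation.
Sema3a rising probe (chr5:13524613-13524672, + strand): ggaaccacagaaattacttttaactcctga
Sema3a falling probe (chr5:13602449-13602508, + strand): tcattgcatttcagatgggaactagaaaac
Sema3e rising probe (chr5:14231896-14231955, + strand): tgtaattcttcttgtttgtagtcacatgtt
Sema3e falling probe (chr5:14256431-14256490, + strand): tctgactagatactggagtgtctttgtctc

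Sema3a, which repels axons through Nrp1 and class A plexins, gave scaled signals of -4.49, -4.20, -4.16 and -4.12 in the 4 B6 mice and -3.17, -2.93, -3.09 and -3.21 in the 4 BTBR/R mice at its rising probe. Every BTBR/R mouse lay above every B6 mouse, and the means were -4.24 ± 0.17 in B6 and -3.10 ± 0.12 in BTBR/R mice (SD, n = 4 each). The change of 1.14 ± 0.10 (SE) is given as a description only. This probe is at the bottom of the range that both strains could show. Of the 40 probes on the array detected on all 8 arrays with a B6 mean below -4, 97.5% were higher at adjusted p below 0.05, with a median change of 1.37, and Sema3a was the one guidance probe among them. The BTBR/R detection limits were above -4, so a probe at that B6 level had to read higher in BTBR/R mice to be detected in both strains. Normexp gave 0.59, under 2-fold. The falling probe read -0.30, -0.02, -0.12 and 0.04 in the 4 B6 mice and -0.45, -0.53, -0.39 and -0.28 in the 4 BTBR/R mice. The strains overlapped there, and the change was -0.32 ± 0.09 (limma adjusted p = 0.0274), past 0.05 in 12 of 19 alternatives and missing it, with adjusted p up to 0.0719, when B6 replicate 2, 3 or 4 or BTBR/R replicate 1, 2 or 3 was left out. Another Sema3a probe, well above background in all B6 mice and 2 BTBR/R mice, read lower in the latter strain (limma adjusted p = 0.00208).

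Sema3e, which binds Plxnd1 directly, read -2.97, -3.07, -2.90 and -3.10 in the 4 B6 mice and -2.10, -2.26, -2.21 and -1.90 in the 4 BTBR/R mice at its rising probe, with no overlap. The change was 0.89 ± 0.09, or 1.86-fold (limma adjusted p = 1.4e-04). Its falling probe read 0.20, 0.27, 0.13 and 0.29 in the 4 B6 mice and -0.33, -0.55, -0.36 and -0.14 in the 4 BTBR/R mice, again with no overlap. That change was -0.56 ± 0.09, or 1.48-fold lower (limma adjusted p = 0.00196). Both Sema3e changes passed adjusted p 0.05 under all 19 alternatives, but normexp made the rise smaller, 0.47. The B6 mean of the rising probe was -3.01, and of the 944 probes with B6 means from -4 to -3 that were detected on all 8 arrays 29.3% rose.

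The disagreement itself was tested, by subtracting from each probe the mean of the other probes of its gene and fitting limma over the 16198 probes detected on all 8 arrays that have such a partner. For Sema3e the change of the rising probe exceeded that of its partner by 1.46 ± 0.08 (limma adjusted p = 3.8e-06). For Sema3a the difference was 1.46, given as a description only, because the B6 mean of its rising probe lay below every BTBR/R detection limit and the probe could enter this fit only by reading higher in BTBR/R mice. With 2 probes per gene the partner gives the mirror image. The 4 called probes among 93 guidance probes tested are thus 2 of Sema3e and the 2 of Sema3a with the limit just given. Setting the Sema3a pair aside leaves the 2 of Sema3e, beside 2.4% called of all 16198, from which no such probes were taken out. With normexp no guidance probe was called in this test. Dim and bright probes of a gene differed elsewhere on the array too. There were 189 genes with 2 probes whose B6 signals were at least 2 apart and the dimmer below -3. In 22 (11.6%) the dimmer probe's change exceeded the brighter one's by 1 or more, and in none did it fall short by as much. A dimmer probe that fell by 1 would lie below every BTBR/R detection limit and leave this set, so the 2 counts cannot be compared.

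**Figure D3:**
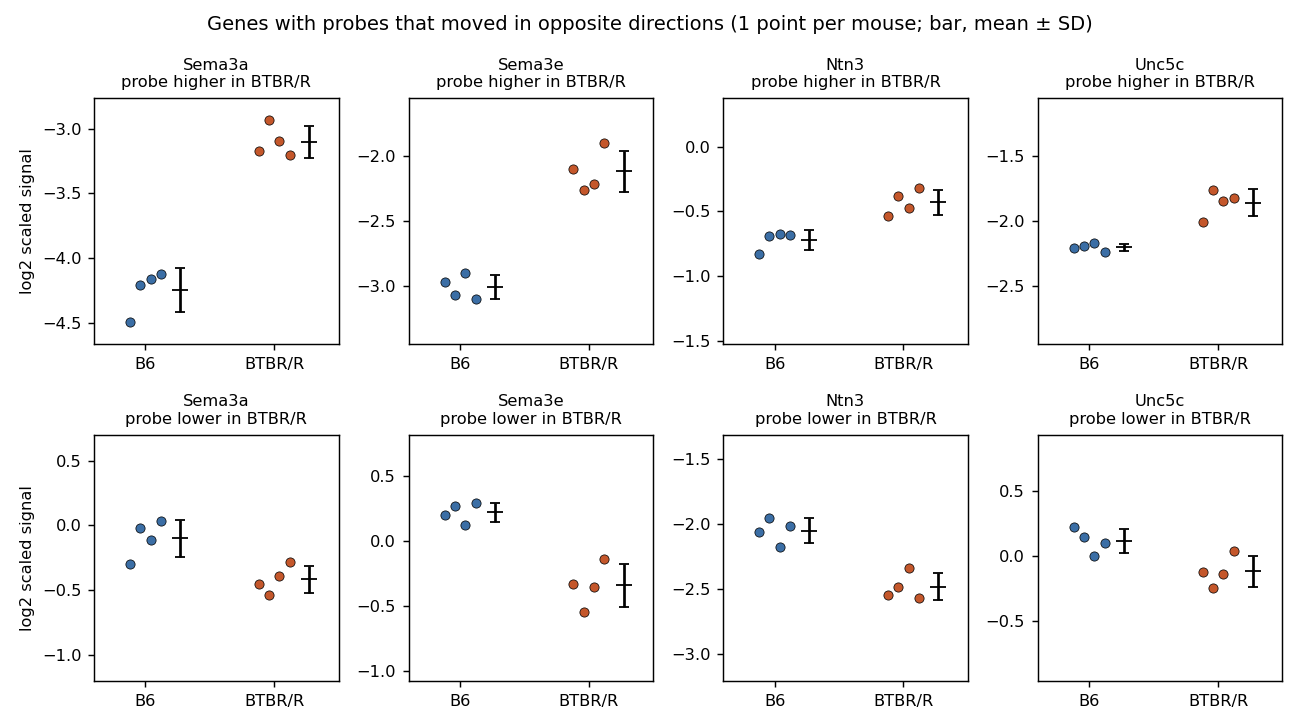
Scaled signal (vertical axis, log2) of each of the 4 B6 mice (blue) and 4 BTBR/R mice (orange) for the rising probe (top) and the falling probe (bottom) of Sema3a, Sema3e, Ntn3 and Unc5c. Points are single mice, bars are means ± SD, and every panel spans the same range on the log2 scale. The strains are apart in all panels but those of the falling Sema3a and Unc5c probes, where they overlap.

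Among the other semaphorins, Sema3b, Sema3f and Sema4f rose by less than 2-fold. Sema3b, a secreted semaphorin, read -0.75, -0.81, -0.68 and -0.94 in the 4 B6 mice and -0.40, -0.23, -0.11 and -0.19 in the 4 BTBR/R mice, and the strains did not overlap. Its change was 0.56 ± 0.08, or 1.47-fold (limma adjusted p = 0.00131). Sema3f, the secreted ligand of Nrp2, read 1.12, 1.10, 1.18 and 1.14 in the 4 B6 mice and 1.32, 1.54, 1.44 and 1.39 in the 4 BTBR/R mice, a change of 0.29 ± 0.06 with no overlap (limma adjusted p = 0.00599). A dim second Sema3f probe changed by 0.16 (limma adjusted p = 0.0779). The membrane-bound Sema4f changed by 0.23 (limma adjusted p = 0.0332) at its probe, and missed 0.05 when B6 replicate 1, 2 or 3 or BTBR/R replicate 3 or 4 was left out (adjusted p up to 0.0708).

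Sema5b, a membrane-bound semaphorin with thrombospondin repeats, fell at 2 of 3 probes, by 0.23 and 0.37 on the log2 scale (limma adjusted p = 0.0283 and 0.0397), and the other changed by 0.00. With normexp the second of these falls was -0.14 and did not pass (limma adjusted p = 0.215). The membrane-bound Sema6c had a probe at 0.22 and a neighbouring probe at -0.15 (limma adjusted p = 0.0273 and 0.0465). Sema6d, its relative, had 1 probe at 0.26 (limma adjusted p = 0.0361) and 2 at -0.12 and -0.15 that did not pass. All of these probes lost the threshold without one array or another, Sema6c at -0.15 without any 1 of the 8 (adjusted p up to 0.11), Sema6d without 7 of the 8 (up to 0.085, B6 replicate 1 being the exception), and the Sema5b probes without 5 and 6 of the 8 (up to 0.071 and 0.0836).

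Over the 33 semaphorin probes detected on all 8 arrays, 7 (21.2%) rose and 5 (15.2%) fell, beside 13% and 13.9% of all probes, and 21 did not pass, with changes from -0.56 to 1.14. With scaling by the array median 4 rose and 5 fell, and with spike-in scaling 9 rose and 1 fell. Of the 10 class 3 probes, 4 rose and 2 fell. Sema3c, a secreted semaphorin chosen by role, changed by 0.18 (95% interval -0.08 to 0.43; limma adjusted p = 0.245). Sema5a, a relative of Sema5b, had 8 probes: the brightest read 3.16, 3.25, 3.23 and 3.16 in the 4 B6 mice and 3.25, 2.88, 3.30 and 3.31 in the 4 BTBR/R mice and changed by -0.02 (limma adjusted p = 0.915). Another of its probes was called lower (limma adjusted p = 0.00247), but it was detected in 3 B6 mice and no BTBR/R mouse, and the B6 mean of -4.54 lay below the BTBR/R detection limits, so no fold is given.

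The semaphorin receptors chosen by role did not pass at their brightest probes. Nrp1, the co-receptor of Sema3a, read 2.48, 2.45, 2.42 and 2.38 in the 4 B6 mice and 2.32, 2.45, 2.45 and 2.38 in the 4 BTBR/R mice at its brightest probe, and the strains overlapped (change -0.03, 95% interval -0.15 to 0.08, limma adjusted p = 0.634). Nrp2, the co-receptor of Sema3f, changed by 0.04 at its brightest probe (95% interval -0.10 to 0.18, limma adjusted p = 0.661). Plxna1 changed by 0.02 (95% interval -0.09 to 0.14, limma adjusted p = 0.771) and Plxna4 by 0.12 (95% interval 0.01 to 0.23, limma adjusted p = 0.073), and both are class A plexins that carry the signal of class 3 semaphorins. At these brightest probes the intervals reach no further than 0.23 from 0.

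Some other probes of both neuropilins did differ. A second Nrp2 probe at chr1:62865129-62865188 read 2.12, 2.04, 2.03 and 1.98 in the 4 B6 mice and 2.32, 2.23, 2.37 and 2.32 in the 4 BTBR/R mice, with no overlap, and rose by 0.27 ± 0.05 (limma adjusted p = 0.00537), past 0.05 in all 19 alternatives. A dim Nrp1 probe rose by 0.59 ± 0.18 (limma adjusted p = 0.0374), but its B6 mean was -3.08, and without any 1 of the B6 arrays or without BTBR/R replicate 3 it missed 0.05 (up to 0.0877). Probes with B6 means from -4 to -3 had a median change of 0.24 over the 944 detected on all 8 arrays. Another Nrp1 probe read -4.10, -3.96, -3.87 and -3.87 in the 4 B6 mice and -4.77, -5.71, -4.49 and -5.90 in the 4 BTBR/R mice and was called lower (limma adjusted p = 0.0168). It was detected in every B6 mouse and no BTBR/R mouse, its B6 mean of -3.95 lay within the range of the BTBR/R detection limits, and normexp gave -0.16 (limma adjusted p = 0.415), so no fold is given.

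Plxnd1, the receptor of Sema3e, fell a little at both probes. The brighter read 3.65, 3.74, 3.78 and 3.72 in the 4 B6 mice and 3.50, 3.40, 3.46 and 3.60 in the 4 BTBR/R mice, with no overlap, a change of -0.23 ± 0.06 (limma adjusted p = 0.0176). The other changed by -0.22 (limma adjusted p = 0.0397) and missed 0.05 without any 1 array but BTBR/R replicate 1 (up to 0.0917). Plxnb1, a class B plexin that binds Sema4d, rose by 0.25 ± 0.06 with no overlap (limma adjusted p = 0.0158). Plxna3 rose by 0.33 at 1 probe (limma adjusted p = 0.0478), which passed in only 7 of 19 alternatives and missed 0.05 without any 1 array but B6 replicates 1 and 4 (up to 0.116), and changed by 0.07 at its brighter probe (limma adjusted p = 0.465). In all, 4 of 21 plexin and neuropilin probes (19%) rose and 2 (9.52%) fell, near the 13% and 13.9% of all probes, and 15 did not pass. The Plxnd1 falls no longer passed with spike-in scaling, where 6 of the 21 rose and none fell.

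The ligands Efnb1 and Efnb2, membrane-spanning ephrins read by EphB receptors and by Epha4, rose. Efnb1 read 1.42, 1.33, 1.33 and 1.41 in the 4 B6 mice and 1.79, 1.93, 1.82 and 1.82 in the 4 BTBR/R mice, well apart, and rose by 0.47 ± 0.05, or 1.38-fold (limma adjusted p = 2.2e-04). Efnb2 read 1.76, 1.86, 1.85 and 2.02 in the 4 B6 mice and 2.07, 2.15, 2.23 and 2.11 in the 4 BTBR/R mice, also without overlap, and rose by 0.27 ± 0.07 (limma adjusted p = 0.0166). The remaining one, Efnb3, read 3.30, 3.17, 3.09 and 3.12 in the 4 B6 mice and 3.23, 3.24, 3.22 and 3.01 in the 4 BTBR/R mice and did not differ detectably (change 0.00, 95% interval -0.17 to 0.18, limma adjusted p = 0.98). Efna5, a lipid-anchored ephrin that guides cortical and thalamic axons, fell at its brightest probe by 0.22 on the log2 scale (limma adjusted p = 0.0278), with overlap, and missed 0.05 without B6 replicate 1, 2 or 4 or BTBR/R replicate 1, 2 or 3 (up to 0.0739). Its other 2 probes changed by -0.14 and 0.01 and did not pass. Over the ephrins, 2 of 11 probes (18.2%) rose and 1 (9.09%) fell, near the 13% and 13.9% of all probes, and 8 did not pass.

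Of 24 Eph receptor probes, 6 (25%) rose and none fell, beside 13% and 13.9% of all probes detected on all 8 arrays, and these counts were 6 to 10 and none under each scaling tried. They belong to 5 of the 12 measured receptors. Ephb4, the receptor of ephrin-B2 known from veins, read -2.49, -2.46, -2.50 and -2.49 in the 4 B6 mice and -1.75, -1.59, -1.62 and -1.74 in the 4 BTBR/R mice, a gap many times wider than the spread within a strain. The change was 0.81 ± 0.05, or 1.76-fold (limma adjusted p = 2.8e-05), and lay between 0.57 and 0.93 over the alternatives. The second Ephb4 probe, designed to an Ensembl transcript, was brighter than the rising one in B6 mice. It read -1.67, -1.93, -1.62 and -1.73 in the 4 B6 mice and -1.69, -1.76, -1.84 and -1.84 in the 4 BTBR/R mice and showed no such change (-0.04, 95% interval -0.22 to 0.14, limma adjusted p = 0.698). The change of the 2 probes differed by 0.85 ± 0.09 (limma adjusted p = 1.7e-04). The opening bases of the 2 probes, 5′ to 3′, are shown with the place each reads.
Ephb4 rising probe (chr5:137815646-137815705, + strand): gtcaacagaggcagacaacggtgcttggaa
Ephb4 second probe (chr5:137819822-137819881, + strand): gcgcgtgcccatccccccacaataacaatc

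The other 4 receptors are of the A class, which reads lipid-anchored ephrins. Epha3 read -2.64, -2.48, -2.67 and -2.46 in the 4 B6 mice and -2.01, -1.95, -1.93 and -1.92 in the 4 BTBR/R mice, with no overlap, and rose by 0.61 ± 0.06, or 1.53-fold (limma adjusted p = 1.8e-04). Its second probe rose by 0.33 (limma adjusted p = 0.0106; 0.22 with normexp), so both measured probes of Epha3 moved the same way. Epha10, a member with an inactive kinase, read -0.38, -0.34, -0.07 and -0.49 in the 4 B6 mice and 0.20, 0.07, 0.19 and 0.07 in the 4 BTBR/R mice and rose by 0.45 ± 0.09 (limma adjusted p = 0.00749), without overlap. Epha5 and Epha7 each rose at 1 of 4 probes, Epha5 by 0.33 (limma adjusted p = 0.0177) and Epha7 by 0.30 (limma adjusted p = 0.00407), while their other 6 probes lay between -0.11 and 0.22 and did not pass. Those 6 include the brightest probe of each gene, at 0.01 for Epha5 and 0.13 for Epha7 (limma adjusted p = 0.934 and 0.268). All 5 rising A-class probes passed adjusted p 0.05 under every one of the 19 alternatives.

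The Eph receptors chosen by role did not pass. Epha4, the receptor of both ephrin classes that keeps corticospinal axons from crossing, read 3.31, 3.33, 3.29 and 3.36 in the 4 B6 mice and 3.21, 3.31, 3.28 and 3.40 in the 4 BTBR/R mice, with overlap and a change of -0.02 (95% interval -0.15 to 0.10, limma adjusted p = 0.776). Ephb1 changed by 0.07 (95% interval -0.15 to 0.29, limma adjusted p = 0.586) and Ephb2, which acts at excitatory synapses, by -0.14 (95% interval -0.31 to 0.03, limma adjusted p = 0.161).

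Of 23 probes named for netrins, their receptors and repulsive guidance molecules, 6 (26.1%) rose and 5 (21.7%) fell, beside 13% and 13.9% of all probes detected on all 8 arrays. The 23 include Unc50, which matched by spelling only and did not pass (change 0.03, limma adjusted p = 0.796). One of the 5 that fell is a probe placed on chromosome 7 that is described below and is no measure of a netrin receptor. Among the ligands, Ntn1, the founding netrin, was dim and changed by 0.14 (95% interval -0.08 to 0.35, limma adjusted p = 0.284). Ntn5, a secreted netrin, read 0.45, 0.87, 0.89 and 0.73 in the 4 B6 mice and 0.15, 0.20, 0.14 and 0.28 in the 4 BTBR/R mice. All BTBR/R mice lay below all B6 mice, B6 replicate 1 being nearest, and Ntn5 fell by 0.54 ± 0.10 on the log2 scale, a 1.46-fold difference (limma adjusted p = 0.00474). It passed under all 19 alternatives.

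Ntn3, another secreted netrin, moved in opposite directions at 2 probes of the same RefSeq transcript. The probe at chr17:24341753-24341812 read -0.83, -0.69, -0.67 and -0.68 in the 4 B6 mice and -0.54, -0.38, -0.48 and -0.32 in the 4 BTBR/R mice and rose by 0.29 ± 0.07 (limma adjusted p = 0.0115). The probe at chr17:24343457-24343516, on the minus strand and thus upstream, read -2.07, -1.95, -2.17 and -2.01 in the 4 B6 mice and -2.54, -2.48, -2.34 and -2.57 in the 4 BTBR/R mice and fell by 0.43 ± 0.07 on the log2 scale (limma adjusted p = 0.00252). Neither pair of groups overlapped, both changes passed under all 19 alternatives, although normexp made the fall smaller (-0.19), and the changes differed by 0.72 ± 0.09 (limma adjusted p = 7.0e-04). The opening bases of both are given, since they read the same transcript.
Ntn3 rising probe (chr17:24341753-24341812, - strand): tgaccacagattttccttgacagacctgac
Ntn3 falling probe (chr17:24343457-24343516, - strand): ggactcagctctcttatcactgggcgcggc

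Of the netrin receptors, Unc5a, a repulsive receptor, rose by 0.25 ± 0.05, with means of 3.90 ± 0.06 in B6 and 4.15 ± 0.06 in BTBR/R mice (SD, n = 4 each), with no overlap (limma adjusted p = 0.00777). Its relative Unc5c rose at 1 probe by 0.34 (limma adjusted p = 0.00337; 0.22 with normexp) and changed at its brightest probe by -0.24 (limma adjusted p = 0.0459), where the strains overlapped and the call was lost without B6 replicate 1, 2 or 4 or BTBR/R replicate 1, 2 or 3 (up to 0.105). Its other probe changed by -0.20 and did not pass.

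Dcc, the receptor through which netrin attracts axons, had 3 probes on chromosome 18 that were detected on all 8 arrays, and they disagreed. One read -3.04, -3.0, -2.68 and -3.10 in the 4 B6 mice and -2.09, -2.38, -2.15 and -2.19 in the 4 BTBR/R mice and rose by 0.76 ± 0.11 (limma adjusted p = 0.00103), one fell by 0.31 on the log2 scale (limma adjusted p = 0.0161), and one changed by 0.02 (limma adjusted p = 0.869). With normexp the rise was 0.48 and the fall -0.13 and no longer past 0.05 (limma adjusted p = 0.0974). A further, very bright probe that the array names Dcc is placed by the same annotation on chromosome 7 and lists a transcript of Gcm1 as well, so its change of -0.26 (limma adjusted p = 0.0164) cannot be read as Dcc.

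Repulsive guidance molecules bind neogenin, a relative of Dcc, and Rgmb also acts as a co-receptor for bone morphogenetic proteins. Rgmb read 1.46, 1.44, 1.36 and 1.52 in the 4 B6 mice and 2.10, 2.13, 2.11 and 2.12 in the 4 BTBR/R mice at 1 of its probes, and rose by 0.67 ± 0.05, or 1.59-fold (limma adjusted p = 2.8e-05), with a wide gap between strains. Its brightest probe rose by 0.27 ± 0.08 (limma adjusted p = 0.0365), but not without B6 replicate 2, 3 or 4 or BTBR/R replicate 2 (up to 0.0914), and its other probe changed by 0.04 (limma adjusted p = 0.778). Neo1, the neogenin gene, was outside the name rule but on the list of other guidance genes: it read 0.51, 0.41, 0.37 and 0.52 in the 4 B6 mice and 1.09, 1.16, 1.0 and 1.15 in the 4 BTBR/R mice and rose by 0.65 ± 0.06, or 1.57-fold, with no overlap (limma adjusted p = 7.4e-05). A dim second Neo1 probe changed by 0.05 (limma adjusted p = 0.669).

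**Figure D4:**
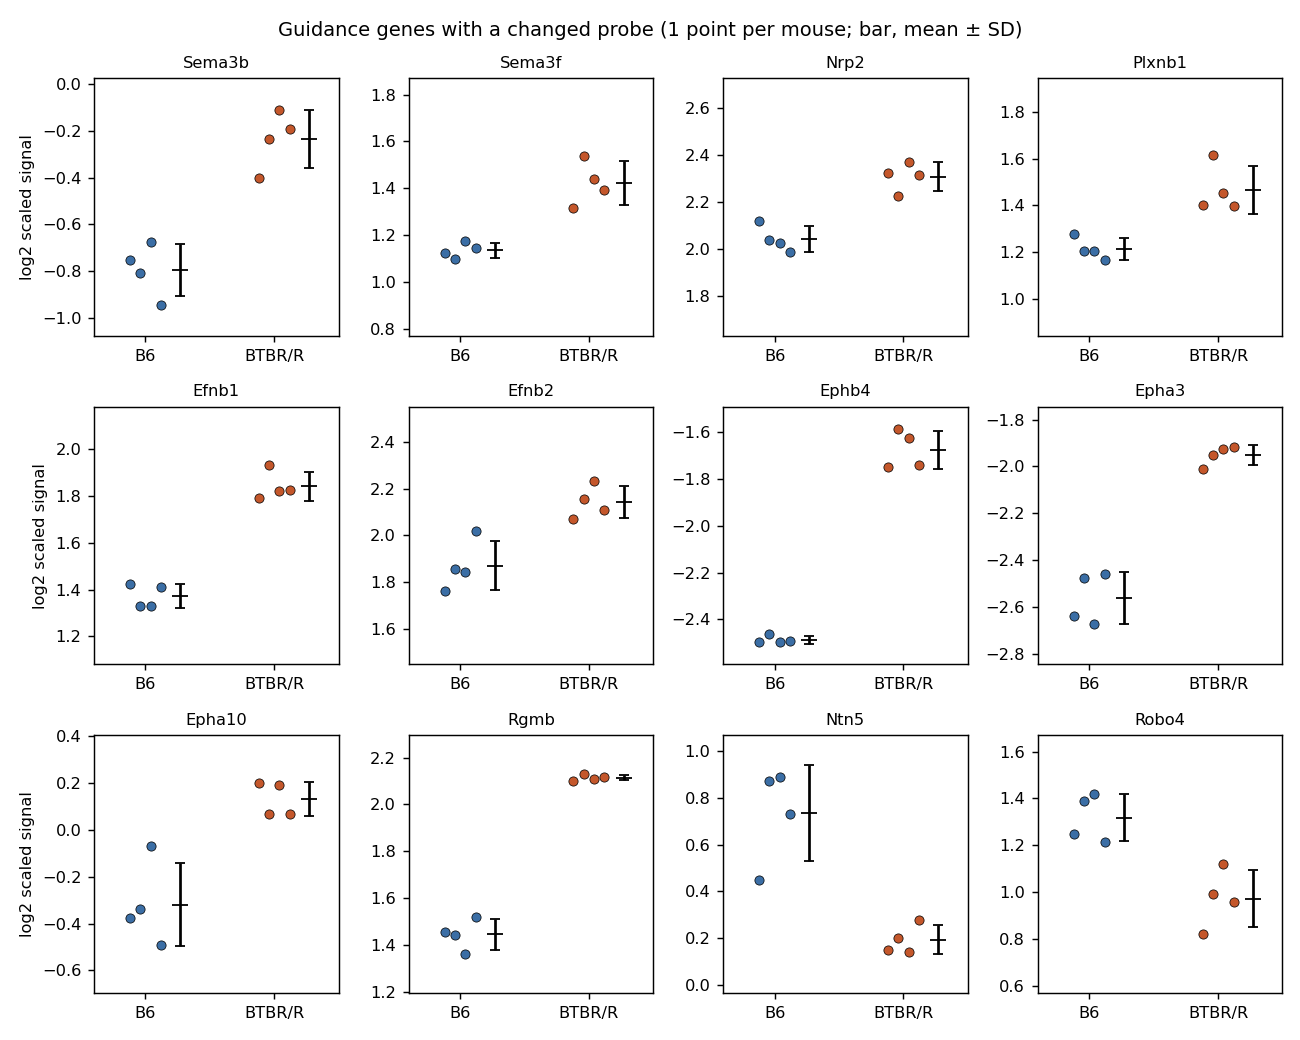
Scaled signal (vertical axis, log2) of each of the 4 B6 mice (blue) and 4 BTBR/R mice (orange) at 1 probe of 12 guidance genes that passed adjusted p 0.05, for genes with several probes the one with the largest change that passed. Points are single mice, bars are means ± SD, and every panel spans the same range. In each of the 12 panels the strains do not overlap, with the BTBR/R mice lower for Ntn5 and Robo4 and higher for the other genes.

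Of 14 probes of Slits and Robo receptors, 2 (14.3%) fell, near the 13.9% of all probes, none rose (13% of all) and 12 did not pass, and the median change was -0.01. Slit1 read 2.18, 2.18, 2.22 and 2.20 in the 4 B6 mice and 2.14, 2.11, 2.26 and 2.24 in the 4 BTBR/R mice, with overlap, and changed by -0.01 (95% interval -0.13 to 0.11, limma adjusted p = 0.902). Slit2 changed by 0.15 (95% interval -0.01 to 0.31, limma adjusted p = 0.12). The receptors of both, Robo1 and Robo2, changed by 0.05 (95% interval -0.08 to 0.17, limma adjusted p = 0.512) and 0.13 (95% interval -0.02 to 0.29, limma adjusted p = 0.156). At these brightest probes of the 4 genes the intervals lie within 0.31 of 0. Other Robo2 probes detected on all 8 arrays had intervals reaching -0.47 or 0.41, and none passed. A dim probe of Robo1 and one of Robo2, detected in every B6 mouse but only 1 BTBR/R mouse, read lower in BTBR/R mice. Their limma adjusted p was 0.026 and 0.00228, and normexp gave smaller changes, -0.20 and -0.14.

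The 2 probes belong to Robo4 and Slit3. Robo4, the Robo receptor of blood vessel endothelium, read 1.25, 1.39, 1.42 and 1.22 in the 4 B6 mice and 0.82, 0.99, 1.12 and 0.96 in the 4 BTBR/R mice, with no overlap, and fell by 0.34 ± 0.08 on the log2 scale (limma adjusted p = 0.012). Slit3 fell by 0.22 (limma adjusted p = 0.03) on the same scale, was at -0.14 with normexp (limma adjusted p = 0.0959), and missed 0.05 without B6 replicate 2 or 3 or BTBR/R replicate 1 or 4 (up to 0.0782). With spike-in scaling neither fell and 1 of the 14 probes rose. Endothelium expresses Robo4 and also Plxnd1. Of 7 endothelial and mural markers, 2 (Cldn5 at -0.51 and Kdr at -0.31) fell, beside 13.9% of all probes, and 5 did not pass, with changes up to 0.05, and the mean scaled signal of the 7 was 0.16 to 0.19 in the B6 mice and -0.08 to 0.12 in the BTBR/R mice. The part of these markers in the falls was not tested.

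Robo3, the receptor that lets commissural axons cross, had a probe that was called lower (limma adjusted p = 0.029) at the edge of detection. It read -2.88, -2.94, -3.04 and -3.19 in the 4 B6 mice and -3.38, -3.62, -4.67 and -4.43 in the 4 BTBR/R mice, with the strains apart. The probe was well above background in every B6 mouse but in 1 BTBR/R mouse only. With BTBR/R signals below the detection limits raised to those limits, the B6 mean was 1.46-fold higher. That is a point value without an error, and the 95% interval of the change ran from -1.70 to -0.33. The other Robo3 probe, detected on all 8 arrays, changed by -0.14 (limma adjusted p = 0.141). The call was lost without B6 replicate 1, 2 or 3 or BTBR/R replicate 3 or 4 (adjusted p from 0.0509 to 0.0702), and normexp gave -0.29 (limma adjusted p = 0.1).

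**Figure D5:**
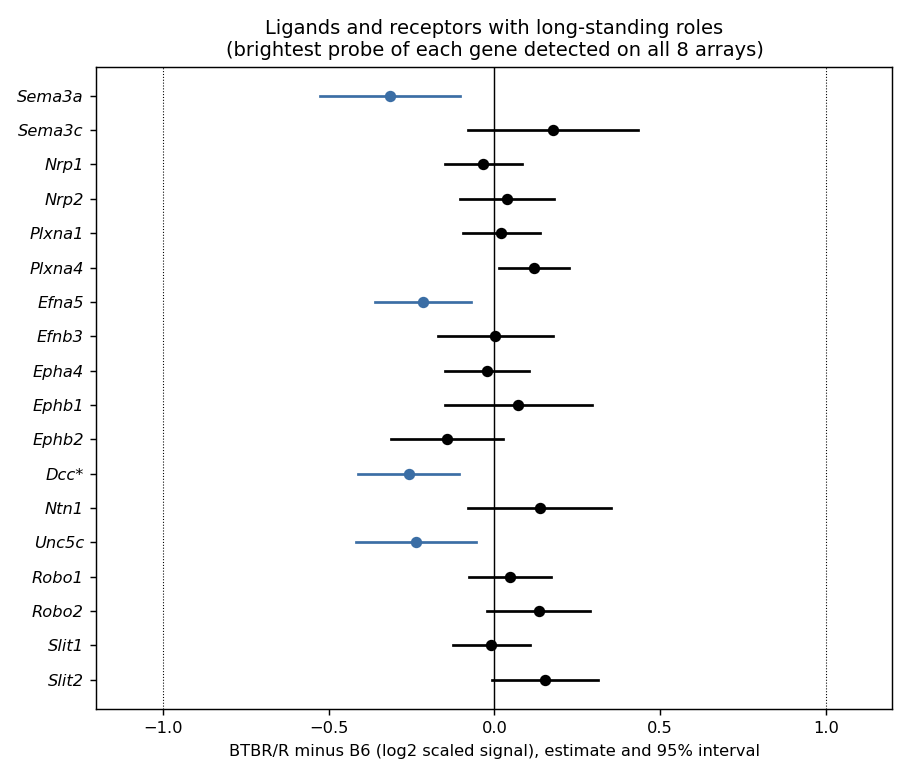
Change between strains (horizontal axis, BTBR/R minus B6, log2 scaled signal) with its 95% interval for 18 ligands and receptors picked by role, each by its brightest probe detected on all 8 arrays. Blue marks a fall at limma adjusted p below 0.05, black no call, and dotted lines a 2-fold change. The probe starred as Dcc is the one placed on chromosome 7. Every interval lies inside 2-fold, and 4 genes are blue (Sema3a, Efna5, Dcc and Unc5c).

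Of the 18 genes chosen by role, none rose and 4 fell, beside 13% and 13.9% of all probes detected on all 8 arrays, and 14 did not pass, with changes from -0.32 to 0.18. The 4 were Sema3a, Efna5, Unc5c and the Dcc probe placed on chromosome 7, and none of the 4 falls passed with spike-in scaling.

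Beyond the named families, 41 other cues and co-receptors were read by their brightest probe, and 38 were detected on all 8 arrays. Of these, 10 rose (13% of all probes detected on all 8 arrays did), 3 fell (13.9% of all), 25 did not pass and none reached 2-fold at adjusted p below 0.05. The median change was 0.03. The largest was that of Neo1. Next came Chl1, a cell adhesion molecule of the L1 family that works with neuropilins, at 0.51 (limma adjusted p = 4.3e-04), and Bmp7, which repels commissural axons, at 0.46 (limma adjusted p = 2.6e-04). Ryk and Wnt5a, a receptor and its Wnt ligand that repel axons, changed by 0.23 and 0.22 (limma adjusted p = 0.00921 and 0.0217). Islr2, Lrig1, Nell2, Boc and Celsr3 rose by 0.40, 0.37, 0.26, 0.21 and 0.16. Lrig1 passed in 5 of 19 alternatives and missed 0.05 without any 1 array but B6 replicate 1 (adjusted p up to 0.117), and Boc and Celsr3 each passed in 10 of 19 and missed it without 1 of 6 of the arrays (up to 0.096 and 0.0756). Dscaml1, Cntn4 and Lrrc4c were the 3 that fell, by 0.18 to 0.26 on the log2 scale. The Cntn4 and Celsr3 probes departed from the other probes of their genes, by -0.86 ± 0.09 and -1.47 ± 0.24 (limma adjusted p = 2.6e-04 and 0.00258), so the direction given for both holds for the probe read. Each of the 3 falls missed 0.05 without 1 of at least 4 of the arrays (adjusted p up to 0.0921), and Wnt5a missed it without B6 replicate 1 or 2 or BTBR/R replicate 3 (up to 0.0571) and with normexp (0.0922), where its change was 0.13. Draxin, a netrin antagonist, was detected on no array.

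Of 60 intracellular effectors that carry guidance signals to the cytoskeleton, 58 were detected on all 8 arrays, 5 rose and 4 fell, 49 did not pass and none reached 2-fold. Beside 13% and 13.9% of all probes detected on all 8 arrays, neither count was above the background. Src, a kinase downstream of several guidance receptors, rose by 0.48 (limma adjusted p = 2.9e-04). Mical3, a relative of the plexin effector Mical1, rose by 0.37 (limma adjusted p = 2.1e-04) and Trio, which acts downstream of Dcc, by 0.37 (limma adjusted p = 6.1e-04). Srgap3, a GTPase-activating protein of the Slit and Robo pathway, fell by 0.47 on the log2 scale (limma adjusted p = 2.8e-04). These 4 passed under all 19 alternatives. The Trio and Srgap2 probes departed from the other probes of their genes, by 0.25 and -0.35 (limma adjusted p = 0.00755 and 0.0411). Dpysl3 and Sos1 also rose, and Rnd1, Srgap2 and Kalrn fell, all by 0.19 to 0.29, and the 3 falls each missed 0.05 without 1 of at least 5 of the arrays (adjusted p up to 0.0977).

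The tissue labels were checked with marker lists. All 9 markers of cortical projection neurons and all 9 of striatal projection neurons were detected on all 8 arrays. Of the cortical list 1 rose and 1 fell, and of the striatal list only Pde10a fell, by 1.07 on the log2 scale. Beside 13.9% of all probes that fell, 3 of 8 oligodendrocyte, 3 of 6 astrocyte and 4 of 7 microglial markers fell and 1 microglial marker rose, with median changes of -0.26, -0.18 and -0.25, and the microglial C1qb was called lower at -1.42, while 1 of 6 interneuron markers fell. Their part in the guidance changes was not tested. Both red blood cell markers measured were called lower, beside 1.16% of all probes detected on all 8 arrays. None of the choroid plexus, thalamus or hippocampal granule cell markers passed between strains, but single mice stood apart in the former 2 lists, as given above. Of the cerebellar granule cell markers, 2 of 3 were not detected on all 8 arrays.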

How the data were processed

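Total RNA was hybridised to 1-colour mouse arrays. The authors extracted spots with Agilent Feature Extraction 10.7.3.1 (submitters' processing notes), and the deposited intensity values are its processed signals, background-subtracted. The authors also deposited a table of log2 values, used as an alternative. Detection is the scanner software's flag for a spot well above background.

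Here control spots and outlier spots were left out, spots of 1 probe were averaged over 56605 probes, and log2 signals were centred on the 75th percentile of each array. Strains were compared with limma 3.58.1 in R 4.3.3 (lmFit and eBayes), with Benjamini-Hochberg adjustment over all probes, and no p was adjusted over the guidance probes alone. Both limma fits, of probes and of probes against their partners, were tested on simulated data. Labels gave no litter or batch, so p-values measure the spread between 4 mice of each strain. The number of arrays limits the precision. Probes and gene names are those of the array design, and of 129 guidance probes with a RefSeq accession 125 were found in the reference table and none under another symbol. Positions are mm9, as the array annotation gives them.

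The guidance probes and gene lists were chosen with earlier results of these data known. Genes were named if a probe was called or passed in both directions, departed from its partners, had the largest change of its family in either direction, or was chosen by role. Genes chosen by role and those of the other lists were read by their brightest probe detected on all 8 arrays. Other guidance genes were described at the probes that passed or were called, whether or not these were the brightest. Alternatives were normexp background correction (offset 50), quantile, median, spike-in and detected-probe scaling, the authors' log2 values, limma with trend, the methods' t-test, limits on detection, a replicate block and leaving out each mouse.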

Additional observations from a re-analysis of the deposited data

Results flagged for a closer look

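In 9 of 160 groups of 4 mice at the named probes, 1 mouse lay far from the other 3 by Dixon's test, and chance alone does so in about 1 in 20 such groups. B6 replicate 3 read -2.08 at a Dcc probe on chromosome 18, below -1.87 to -1.85 in the others. B6 replicate 1 read -0.83 at the rising Ntn3 probe, below -0.69 to -0.67, and 0.36 at Ephb2, above 0.14 to 0.17. B6 replicate 4 read 1.35 at the rising Epha5 probe, above 1.10 to 1.14, and B6 replicate 3 read 0.71 at Bmp7, above 0.62 to 0.63. BTBR/R replicate 4 read 3.01 at Efnb3, below 3.22 to 3.24, and 3.65 at Celsr3, below 3.67. BTBR/R replicate 2 read -1.37 at the rising Plxna3 probe, above -1.70 to -1.66, and BTBR/R replicate 3 read 2.25 at Trio, below 2.33 to 2.34.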

How the results depend on the processing

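No probe detected on all 8 arrays that passed its test and is named with a change turned sign under the alternatives run. With normexp, probes detected on no array turned from higher to between -0.22 and -0.01 for Slit2, Robo1, Plxna4os1 and Plxna4os2, which had been called, and Robo2, which had passed without 2-fold. The changes near 0 of Nrp1, Nrp2, Plxna1, Slit1, Robo1, Epha4 and Efnb3, which did not pass, took both signs, between -0.08 and 0.16, and the median of the Slit and Robo probes went from -0.01 to 0.10 with spike-in scaling. With normexp no guidance probe was called, in place of 3 lower and 14 higher (0 lower and 0 higher), the 1 called among probes detected on all 8 arrays became 0, and the 4 probes departing from their partners became 0. The calls higher became 1 with quantile normalization, 1 with the fit limited to probes measured throughout B6 or throughout BTBR/R mice and 1 with the fit limited to probes detected on all 8 arrays, where the calls lower became 0 by construction. Spike-in scaling gave 2 calls higher on all 8 arrays (Sema3e was the second), 3 falls at adjusted p below 0.05 in place of 15 and a median change of 0.160. The replicate numbers did not pair the mice (correlations of same-numbered deviations between -0.07 and 0.16), and with the replicate block 8 probes fell in place of 15. Leaving out 1 mouse gave 2 to 4 calls lower and 12 to 14 higher, 0 lower (0 to 0) and 1 higher (1 to 1) on all 8 arrays, 7 to 11 falls and 19 to 24 rises at adjusted p below 0.05, 4 to 5 departing probes and a median change of 0.0315 to 0.0671. The methods' t-test, adjusted and with their fold threshold, called 2 lower and 13 higher. Of the other values, 1276 kept their side of the threshold, 233 lost it and 5 gained it. The cause of these shifts was not tested. Signal over background limits every probe below the BTBR/R detection limit.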
